A study of Mus musculus with 39 samples.

Results

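Ribosomal protein pseudogenes are copies of the genes for the proteins of the ribosome. They were followed here in mouse embryos at the 4-cell and 2-cell stages. The members were the rows of the count table whose symbol begins with Rpl or Rps and ends in -ps, with or without a number, and that held a count in at least 1 of 39 libraries. They were 256 of the 319 rows with such a symbol, and 256 of the 29390 genes with a count, while the other 63 had no count. The members were thus selected on their counts and on the all-or-none differences between embryos of a batch, and those differences are described below without a test.

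The study made RNA sequencing libraries with oligo-dT priming and template switching from whole embryos and from the single blastomeres of embryos taken apart, which allows stages, separation and sister cells to be compared. All embryos were wild type (labelled WT), and the labels give no other allele, agent or strain. The 19 embryos were 2 separated 4-cell embryos of batch 2 (numbers 6 and 7), 3 separated 4-cell embryos of batch 1 (numbers 2, 3 and 4), 4 intact 4-cell embryos (numbers 1, 3, 4 and 5), 5 separated 2-cell embryos and 5 intact 2-cell embryos. An intact embryo was 1 library, while a separated embryo was the sum of its blastomere libraries, so separation cannot be told apart from input per library.

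Most ribosomal protein pseudogenes are processed pseudogenes, which arise when a messenger RNA is reverse transcribed and the DNA copy is inserted elsewhere in the genome. Such a copy lacks introns and usually the promoter of its source gene, and its RNA, where it is made, depends on the surroundings of the insertion. In the mouse the embryo starts large-scale transcription of its own genome at the 2-cell stage, while transcripts from the oocyte are degraded. Ribosomal protein genes are among the most strongly expressed genes of growing cells.

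The annotation bore out the label for nearly every member. Of the 256, 241 were annotated in GENCODE M21 (build GRCm38) as processed pseudogenes and 8 as transcribed processed pseudogenes, while 6 were annotated as protein coding and 1 as a long intergenic RNA. The source gene is the gene whose symbol is left when the ending -ps and its number are removed, and 62 genes were such sources. Rpl31, which encodes a protein of the large subunit, had 22 members, Rpl21 had 15 and Rps19 had 12. The members lay on 20 chromosomes, with 22 on X. Outside any other gene there were 169, in an intron of a gene on the opposite strand 51, in an intron of a gene on the same strand 23, and 13 overlapped an exon of another gene.

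The sequences below are shown because they decide what a count for these copies can mean. Each belongs to a member described below for its differences between embryos, or to a close copy of it, and is 300 bases or less of the transcript in GENCODE M21, written 5′ to 3′. Capitals mark the bases that differ from the transcript of the source gene, and bases that a copy lacks are not marked. Rpl15-ps6 lies outside other genes at chr15:52477617-52478228 on the minus strand and Rpl15-ps2 at chr9:72060937-72061549 on the plus strand, in an intron of Tcf12 on the opposite strand. Both are copies of Rpl15, a large subunit protein gene, and the first 300 bases of each are given (chr15:52477929-52478228 and chr9:72060937-72061236).
Rpl15-ps6: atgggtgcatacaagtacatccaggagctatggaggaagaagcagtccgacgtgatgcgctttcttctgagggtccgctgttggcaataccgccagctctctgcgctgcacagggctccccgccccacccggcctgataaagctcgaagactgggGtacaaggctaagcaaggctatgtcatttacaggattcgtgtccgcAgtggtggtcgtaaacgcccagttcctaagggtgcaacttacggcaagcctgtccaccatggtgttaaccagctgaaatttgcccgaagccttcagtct
Rpl15-ps2: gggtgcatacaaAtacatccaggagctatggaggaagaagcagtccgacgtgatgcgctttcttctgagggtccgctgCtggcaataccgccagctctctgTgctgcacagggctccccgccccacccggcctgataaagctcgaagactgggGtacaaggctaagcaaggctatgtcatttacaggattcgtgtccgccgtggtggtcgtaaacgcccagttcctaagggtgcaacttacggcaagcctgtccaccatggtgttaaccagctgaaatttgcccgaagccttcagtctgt

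With positions counted from 1 at the 5′ end of the printed sequence and the base of the source gene given first, Rpl15-ps6 had the 2 substitutions A156G and C202A over its whole length of 612 bases. Rpl15-ps2 had 8, of which 4 (G13A, T79C, C102T and A154G) fall in the printed stretch. Over the bases that aligned, Rpl15-ps6 was 99.7% identical to Rpl15 and 98.7% identical to Rpl15-ps2. Of its windows of 50 bases, 82.9% occurred unchanged in a transcript of Rpl15. A read that falls in such a window cannot be assigned by its sequence alone.

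The next pair shows how far copies of 1 gene can differ. Rps15a encodes a small subunit protein. Rps15a-ps8 lies outside other genes at chr4:53791070-53791456 on the minus strand, and Rps15a-ps7 at chr2:152185291-152185682 on the minus strand. The first 300 bases of each are given (chr4:53791157-53791456 and chr2:152185383-152185682).
Rps15a-ps8: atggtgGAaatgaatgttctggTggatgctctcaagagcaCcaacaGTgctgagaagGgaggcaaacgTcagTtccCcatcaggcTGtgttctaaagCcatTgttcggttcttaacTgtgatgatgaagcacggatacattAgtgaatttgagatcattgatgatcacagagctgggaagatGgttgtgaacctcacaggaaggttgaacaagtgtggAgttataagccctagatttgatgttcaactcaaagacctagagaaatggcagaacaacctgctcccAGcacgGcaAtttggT
Rps15a-ps7: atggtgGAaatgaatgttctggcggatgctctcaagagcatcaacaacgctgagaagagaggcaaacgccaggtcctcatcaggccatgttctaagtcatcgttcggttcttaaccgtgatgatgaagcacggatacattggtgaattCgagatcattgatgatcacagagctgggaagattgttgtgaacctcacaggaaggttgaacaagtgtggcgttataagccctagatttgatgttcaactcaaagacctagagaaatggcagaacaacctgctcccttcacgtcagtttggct

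Rps15a-ps8 had 30 substitutions over its whole length, 23 of them in the printed stretch, and shared 4.7% of its windows with Rps15a. Rps15a-ps7 had 4 substitutions, lacked 1 base of Rps15a and shared 60.1%. The adjacent substitutions C7G and G8A stood in both copies. Rps15a-ps8 also had the smallest part of its windows in any other transcript among the 12 most abundant members, at 9.5%.

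Rps18-ps6 is a copy of Rps18, a small subunit protein gene, and is annotated as a protein-coding gene at chr13:97760072-97760632 on the minus strand. The last 300 bases of its coding part, chr13:97760133-97760432, are printed here because they hold all 4 substitutions of that part, T30C, A181C, G215A and G275A.
Rps18-ps6: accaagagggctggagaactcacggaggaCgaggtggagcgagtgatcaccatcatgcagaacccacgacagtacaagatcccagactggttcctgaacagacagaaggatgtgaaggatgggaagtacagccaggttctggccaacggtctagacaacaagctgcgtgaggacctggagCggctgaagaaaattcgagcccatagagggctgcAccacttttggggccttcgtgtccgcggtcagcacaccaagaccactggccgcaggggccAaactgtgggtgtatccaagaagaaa

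The long intergenic RNA that carries the symbol Rps18-ps4 overlaps Rps18-ps6 on the opposite strand. The labels do not state that counting used strand, so reads of these overlapping genes cannot be told apart. Rps18-ps4 itself had counts in 5 of 39 libraries, all in batch 2, and at most 28 in 1 of them.

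The last pair are copies of Rpl36, a large subunit protein gene, that hardly differ from each other. Rpl36-ps8 lies at chr4:116839907-116840221 and Gm5745 at chr9:73175429-73175741, both on the minus strand, and the printed stretches are chr4:116839907-116840206 and chr9:73175429-73175726. Gm5745 is annotated as a processed pseudogene but does not carry a symbol of the -ps form, so it is not a member. It was added after the values had been seen.
Rpl36-ps8: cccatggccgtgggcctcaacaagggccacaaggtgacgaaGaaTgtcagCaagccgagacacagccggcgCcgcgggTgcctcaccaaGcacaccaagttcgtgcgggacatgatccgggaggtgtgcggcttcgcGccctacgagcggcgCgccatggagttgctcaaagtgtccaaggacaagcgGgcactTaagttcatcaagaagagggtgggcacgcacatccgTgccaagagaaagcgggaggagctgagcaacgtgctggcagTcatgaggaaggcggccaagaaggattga
Gm5745: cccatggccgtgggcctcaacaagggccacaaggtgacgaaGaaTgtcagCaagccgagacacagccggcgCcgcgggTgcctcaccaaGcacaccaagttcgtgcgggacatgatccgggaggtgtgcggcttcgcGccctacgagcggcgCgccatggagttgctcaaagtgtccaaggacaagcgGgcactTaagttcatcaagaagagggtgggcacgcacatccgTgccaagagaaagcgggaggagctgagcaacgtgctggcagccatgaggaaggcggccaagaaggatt

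The only base at which this pair differed over the aligned part was T272C, with Rpl36-ps8 first and Gm5745 after the position, so the capital T of Rpl36-ps8 near its 3′ end is absent from Gm5745. They were 99.7% identical and shared 89.1% of the windows of Rpl36-ps8. With Rpl36 itself, Rpl36-ps8 shared 0.4% of its windows. Both copies lacked 3 bases of Rpl36.

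Few members made up most of the signal. The summed count of the 256 members over all libraries was 138962, of which the member with the highest sum, Rpsa-ps10, held 12.2%, the first 5 held 39.9% and the first 12 held 67.2%. At least 30 counts were reached by 114 members and at least 1000 by 24, while 16 members had a single count. In every library, 18 members were detected. In each of the 19 embryos, 25 were detected, and 24 were detected in 1 embryo alone. Members at 30 or more counts passed this limit through the libraries in which they were high, so their patterns do not stand for those of all members.

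Depth differed between libraries. Totals ran from 2.02 to 31.58 M counts (M, 1000000) in separated 4-cell blastomeres of batch 2, 2.4 to 5.23 in those of batch 1, 2.74 to 4.19 in intact 4-cell embryos, 5.93 to 44.05 in separated 2-cell blastomeres and 7.16 to 9.89 in intact 2-cell embryos. Blastomere 2 of embryo 7 in batch 2 was the shallow library, at 2.02 M counts, against at least 24.1 M in its sisters. Thinned to the total of the smallest library, 54.0 to 71.2 members were expected to be detected per library in separated 4-cell blastomeres of batch 2, 57.7 to 70.1 in batch 1 and 60.4 to 70.7 in intact 4-cell embryos, against 35.6 to 51.9 in separated 2-cell blastomeres and 32.3 to 52.0 in intact 2-cell embryos. At equal depth, the expected number was thus higher in every 4-cell library than in any 2-cell library, by 54.0 against 52.0 at the closest. The same number was not computed over all genes, so it is not shown to be particular to the members. Genes typical of the 2-cell stage, summed over 8 markers, were at 13.0 to 89.0 CPM (counts per 1000000 counts) in 4-cell embryos and at 1560 to 3400 CPM in 2-cell embryos. The summed markers of cumulus cells reached at most 43.8 CPM, of blood 50.4 CPM and of sperm 30.3 CPM in any embryo, and their part in the results below was not tested.

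The nearer a copy was to its source gene, the more often it was detected. The 56 members at 99% identity or more over the aligned bases held 62.4% of the counts and were seen in a median of 26.5 libraries. The 99 members at 95 to 99% held 29.9% of the counts and were seen in a median of 10 libraries, and the 96 below 95% held 7.32% and were seen in a median of 4. Of these 3 classes, 71.4%, 48.5% and 22.9% of members reached 30 counts. The same order held for windows shared with another transcript, with medians of 90.2%, 47.9% and 6.25%. Reads taken from the source gene would add to the counts of the most alike copies, and that share was not tested. Rps16-ps2 and Rpl36a-ps2 were identical to their source genes in every window, so their counts cannot be separated from those of Rps16 and Rpl36a.

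**Figure D1:**
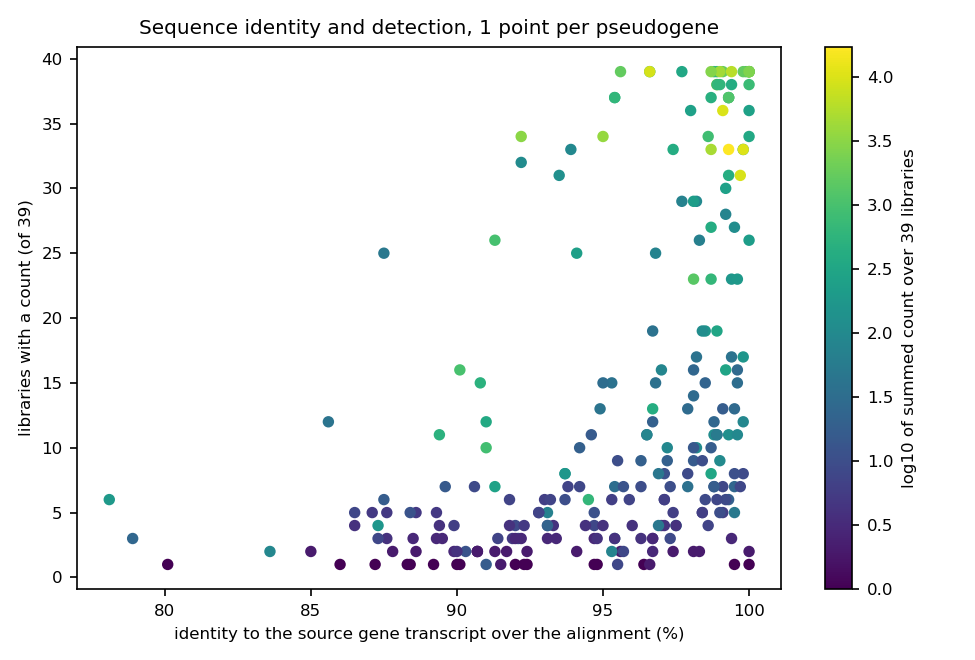
Number of the 39 libraries with a count (y axis) against identity to the source gene in percent of aligned bases (x axis), 1 point for each member with an alignment, coloured by the log10 of its summed count. Members of 99% identity or more were seen in a median of 26.5 libraries and members below 95% in a median of 4.

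The deposited expected counts were also searched for values that are not whole numbers. Of the members' values above 0, 1.45% were not whole numbers, and only 5 members had such a value. Over all genes, 12.6% were not whole. A value that is not whole arises where a read was divided between genes. A whole value does not show that its reads matched 1 gene only, since the treatment of reads with several matches is not given.

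The most abundant member by mean level over the 19 embryos was Rps19-ps7, a copy of the small subunit gene Rps19 at chr2:140073032-140073469, outside other genes. Levels of whole embryos are CPM normalised by the trimmed mean of M values (TMM), and those of single blastomeres are CPM of total counts. Rps19-ps7 was at 7.6 and 10.6 CPM in separated 4-cell embryos of batch 2, 36.7, 34.5 and 35.9 in those of batch 1 and 20.5, 14.5, 16.9 and 15.9 in intact 4-cell embryos, against 15.5, 30.8, 27.1, 29.5 and 11.9 in separated and 63.0, 19.7, 25.8, 7.72 and 28.2 in intact 2-cell embryos. The stages overlapped, and the member was detected in all 39 libraries. Its identity to Rps19 was 96.6%, with 24.4% of windows shared. Per kilobase its mean level was 3.81% of that of Rps19, the gene mutated in some families with Diamond-Blackfan anaemia, with 438 bases for the copy and 633 for the Rps19 transcript that aligned best to it.

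On the same scale of CPM per kilobase, Rps18-ps6 was at 16.2% of the level of Rps18, with transcripts of 561 and 560 bases. Rpsa-ps10 was at 30.7% of the level of Rpsa, which encodes the small subunit protein also known as the laminin receptor, with transcripts of 885 and 1599 bases. Rps15a-ps8 was at 3.99% of the level of Rps15a and Rps15a-ps7 at 2.87%. Rpsa-ps10 had the highest such share and Rps15a-ps7 the lowest among the 12 most abundant members. These shares depend on the length taken for the source gene. Over all annotated exons of the source genes, which are longer for most of them, the 12 members were at 6.40% to 71.0% in another order. Such averages rest for several members on a few embryos, as the levels by embryo show.

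**Figure D2:**
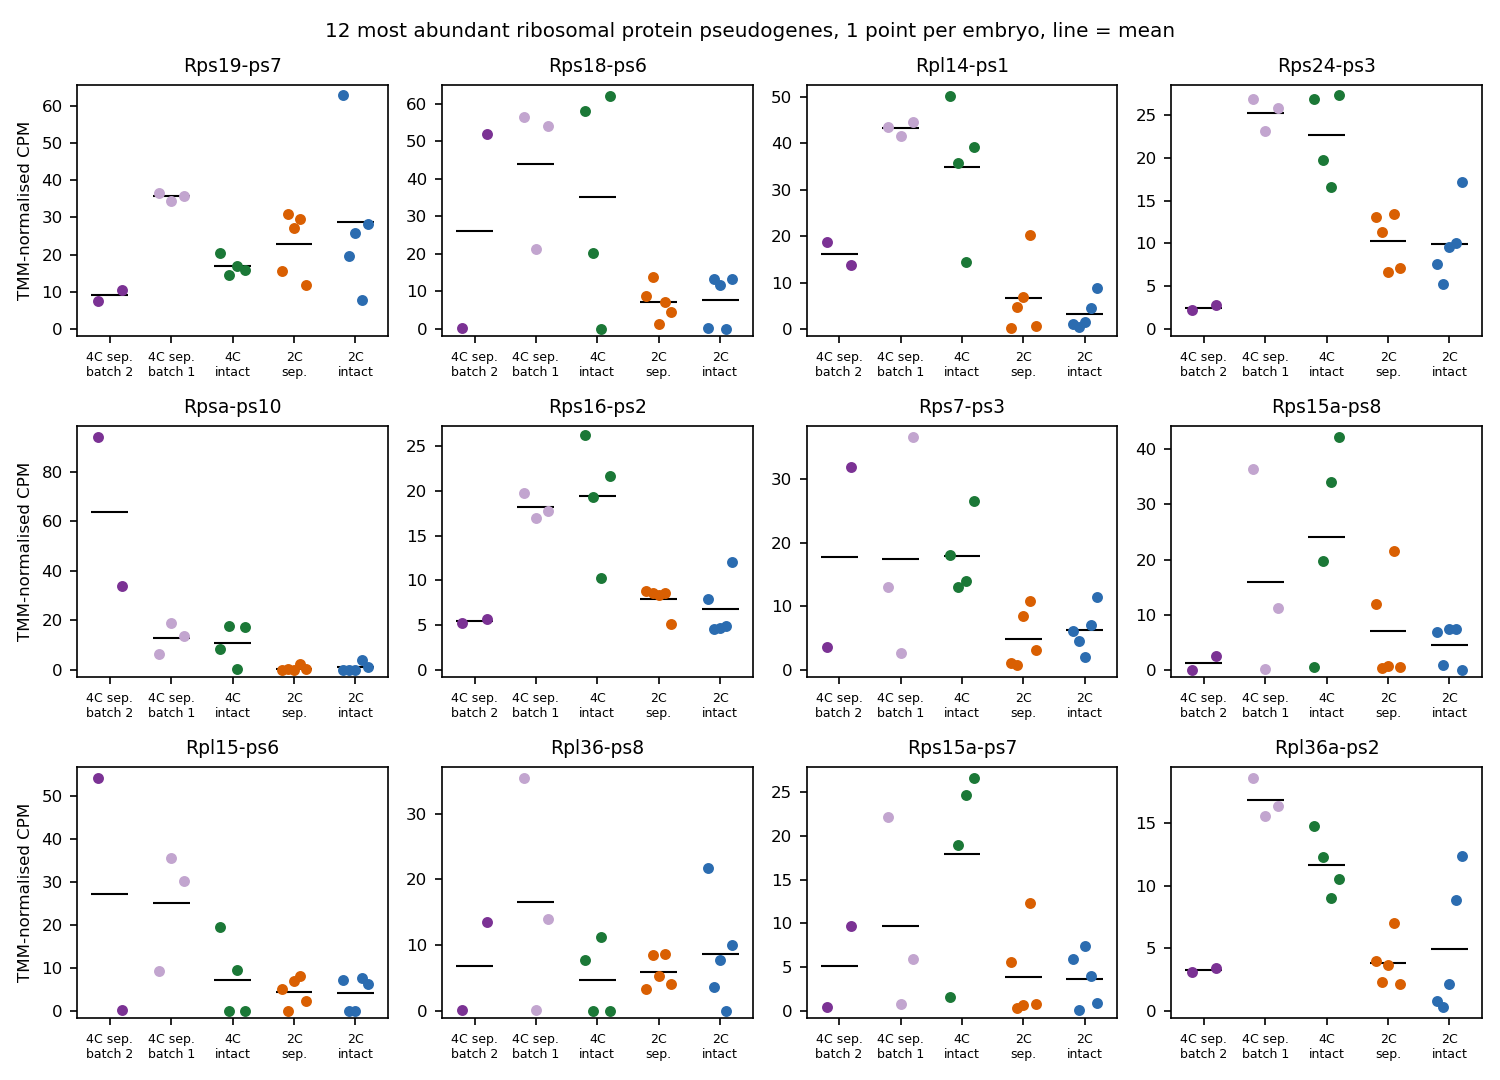
Level in TMM-normalised CPM (y axis, linear, a scale for each panel) of the 12 most abundant members, with 1 point per embryo, a line at the mean, and 4-cell groups left of 2-cell groups on the x axis. Rps16-ps2 is at 4.6 CPM or more in every embryo, while Rps18-ps6, Rps15a-ps8, Rpl15-ps6 and Rpl36-ps8 are at or near 0 in some 4-cell embryos and above 10 CPM in others.

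The summed share of the members in all counts was higher at the 4-cell stage. It was 0.0409% ± 0.0031 in separated 4-cell embryos of batch 2 (mean ± SD, n = 2), 0.0416% ± 0.0036 in those of batch 1 (n = 3) and 0.0352% ± 0.0089 in intact 4-cell embryos (n = 4), against 0.0153% ± 0.0041 in separated and 0.0173% ± 0.006 in intact 2-cell embryos (n = 5 each). The lowest 4-cell value, 0.0247% in an intact embryo, was above the highest 2-cell value, 0.024%. Such a share is a score over chosen members and carries no test. The source genes were higher at the 4-cell stage too, and within the sum of members and source genes the members held 0.914% ± 0.0526 in batch 2, 0.785% ± 0.0328 in batch 1 and 0.685% ± 0.0651 in intact 4-cell embryos, against 0.854% ± 0.165 in separated and 0.971% ± 0.19 in intact 2-cell embryos. On that scale the stages overlapped. A share is relative to all counts, so it does not give the amount of RNA per cell. In an intact embryo the cells are pooled, so fewer cells with a transcript and less of it per cell cannot be told apart.

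Stage was tested in 59 of the 256 members, those with enough counts for the test across all 14119 genes. In intact embryos 2 members were higher at the 4-cell stage and none was lower at an adjusted p under 0.05 (edgeR's quasi-likelihood F-test with Benjamini-Hochberg adjustment). Over all genes tested, 10.4% were called, 5.41% higher and 4.99% lower, so the count among the members, 3.39% of those tested, was below the background. At an unadjusted p under 0.05 there were 7 members, 4 higher and 3 lower, against 28% of all genes. DESeq2's Wald test called 8 members, against 23.1% of all genes with an adjusted p. The median log2 fold change of the tested members was 1.24, against 0 over all genes, with 44 above 0 and 15 below. Of the 79 ribosomal protein genes, a list chosen with these data known, 65 rose and none fell, with a median of 1.49. Separate animals are not named in the labels, so p-values here cover the spread among these embryos alone.

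Rpl14-ps1 rose at the 4-cell stage in intact embryos. It is a copy of the large subunit gene Rpl14 in an intron of Trpm4 on the opposite strand, at chr7:45324965-45325617, with 98.9% identity and 78.3% of windows shared with Rpl14. It was at 50.2, 35.7, 14.4 and 39.3 CPM in intact 4-cell embryos, against 0.97, 0.493, 1.4, 4.43 and 8.92 CPM in intact 2-cell embryos. The stages did not overlap. The log2 fold change was 3.43 (SE 1.08, adjusted p = 0.0482, edgeR's quasi-likelihood test). Rpl14 moved likewise, with 798, 518, 473 and 396 CPM in intact 4-cell embryos, against 35.9, 25.2, 33.5, 49.5 and 114 CPM in intact 2-cell embryos, and a log2 fold change of 3.40 (SE 0.70) at an edgeR adjusted p of 0.00427. Over the 19 embryos the 2 had a Pearson correlation of 0.95 on the log2 scale, and Rpl14 was the gene most like Rpl14-ps1 of 13692 compared. The points share libraries and depth, and reads of Rpl14 in shared windows may stand among those of the copy, which was not tested.

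Rpl31-ps11 was the other member that rose in intact embryos. It is a copy of Rpl31 at chr3:94604408-94604784, outside other genes, with 98.7% identity and 46.6% of windows shared with Rpl31. It was at 2.85, 14.5, 5.87 and 0.976 CPM in intact 4-cell embryos, against 0, 0, 0.0997, 0 and 0 CPM in intact 2-cell embryos. The stages did not overlap, and the 2-cell embryos held 1 count in all. The log2 fold change was 7.80 (SE 2.42, adjusted p = 0.0453, edgeR's quasi-likelihood test). In counts, 78 of 14.4 M in intact 4-cell embryos stood against 1 of 40.3 M in intact 2-cell embryos, a ratio of 217 with a 95% interval of 37.9 to 8700 that covers counting error only. In separated embryos Rpl31-ps11 was at 0.331 and 0.446 CPM in 4-cell embryos of batch 2 and 2.03, 11.6 and 9.18 in those of batch 1, against 0, 0.0458, 6.31, 0 and 0.0674 CPM in 2-cell embryos. There the stages overlapped, at an edgeR adjusted p of 0.435. In intact embryos Rpl31 itself rose with a log2 fold change of 1.69 (SE 0.46) at an edgeR adjusted p of 0.0241.

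Both calls stood close to the threshold. Without any 1 of the 9 intact embryos, 0 members were called, except without intact 2-cell embryo 5, when 1 was called, Rpl14-ps1. The log2 fold change stayed between 3.05 and 4.25 for Rpl14-ps1 and between 6.80 and 10.38 for Rpl31-ps11 in these fits. No member was called with no filter on low counts, with the compared groups alone, with no batch term or with batch 2 left out.

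In separated embryos no member was called for stage by edgeR, against 11.1% of all genes, while 6 passed an unadjusted p under 0.05, 4 higher and 2 lower (27.9% of all genes), and DESeq2 called 4 (23.8% of all genes). The median log2 fold change was 1.46 over the tested members and −0.15 over all genes, with 49 members above 0 and 10 below. Of the ribosomal protein genes, 67 of 79 rose and none fell, with a median of 1.51. Rpl14-ps1 was at 18.7 and 13.7 CPM in separated 4-cell embryos of batch 2 and 43.6, 41.6 and 44.7 in those of batch 1, against 0.305, 4.64, 6.89, 20.3 and 0.741 CPM in separated 2-cell embryos. Batch 2 overlapped with the 2-cell embryos and batch 1 did not, with a log2 fold change of 2.72 (SE 1.10) at an edgeR adjusted p of 0.114. The fitted stage effect uses the batch 1 level, since batch 2 held separated 4-cell embryos only.

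Rps16-ps2, Rps24-ps3 and Rpl36a-ps2, which are among the 12 most abundant members and had counts in all 39 libraries, differed less between stages than Rpl14-ps1 and Rpl31-ps11, and none of the 3 passed the edgeR test. Rps16-ps2, in an intron of Adgrd1 on the opposite strand at chr5:129128077-129128517, was at 26.2, 19.3, 10.3 and 21.7 CPM in intact 4-cell embryos, against 7.89, 4.6, 4.69, 4.88 and 12 CPM in intact 2-cell embryos. The stages overlapped, with a log2 fold change of 1.51 (SE 0.77) at an edgeR adjusted p of 0.207, while DESeq2's adjusted p was 0.00993. Rps24-ps3 was at 26.9, 19.7, 16.6 and 27.3 CPM in intact 4-cell embryos, against 7.62, 5.26, 9.57, 10.1 and 17.2 CPM in intact 2-cell embryos, again with a small overlap, at an adjusted p of 0.282 in edgeR and 0.0314 in DESeq2. Rpl36a-ps2, a copy of the large subunit gene Rpl36a in an intron of Ddah1 on the same strand, was at 14.8, 12.3, 9.05 and 10.5 CPM in intact 4-cell embryos, against 0.831, 0.329, 2.19, 8.86 and 12.4 CPM in intact 2-cell embryos. The highest 2-cell embryo lay within the 4-cell range, and the edgeR adjusted p was 0.487. Its correlation with Rpl36a over the 19 embryos was 0.95, where the sequences are identical. Rps16-ps2, also identical to its source gene, had a correlation of 0.78 with Rps16 and of 0.96 with Rpl26, another large subunit gene.

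Rps7-ps3, annotated as a transcribed processed pseudogene on X at chrX:152909505-152910155, varied widely between embryos of a stage. It is a copy of the small subunit gene Rps7 with 99.4% identity. It was at 3.6 and 31.8 CPM in separated 4-cell embryos of batch 2, 13.0, 2.62 and 36.6 in those of batch 1 and 18.1, 13.0, 13.9 and 26.6 in intact 4-cell embryos, against 1.17, 0.732, 8.5, 10.9 and 3.17 in separated and 6.09, 4.6, 2.09, 7.04 and 11.5 in intact 2-cell embryos. Within batch 2, the blastomeres had 1242, 106, 1055 and 1019 counts in embryo 7 and 93, 146, 121 and 119 in embryo 6. Rps7 itself was at 874 CPM in embryo 6 and 774 CPM in embryo 7.

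Of the 59 tested members, 15 in intact and 10 in separated embryos had a stage log2 fold change below 0, and none of these passed the edgeR test. A pair with lower values at the 4-cell stage is described here, and they are named after their values had been seen. Rpl19-ps3, annotated as a transcribed processed pseudogene on chromosome 14 with 91.0% identity to Rpl19 over 701 aligned bases, had no count in any of the 4 intact 4-cell embryos, against 0, 47, 15, 55 and 0 counts in intact 2-cell embryos. In separated embryos it had no count in any blastomere of batch 1 at the 4-cell stage and 1, 0, 1 and 21 in embryo 7 of batch 2, against up to 147 counts in a 2-cell blastomere. Separated 2-cell embryos 3 and 5 each had a blastomere at 0 too. The blastomeres of batch 1 were shallower, at 2.4 to 5.23 M counts, against 5.93 to 44.05 M in 2-cell blastomeres. Its edgeR adjusted p was 0.113 in intact and 0.124 in separated embryos. Rps19-ps8 was at 0, 0.372, 0.489 and 0.244 CPM in intact 4-cell embryos, against 9.83, 6.58, 10.2, 9.09 and 0.129 CPM in intact 2-cell embryos. All but 1 of the 2-cell embryos lay above the 4-cell embryos, and the log2 fold change was −4.68 (SE 1.86) at an edgeR adjusted p of 0.105, against 0.00676 in DESeq2. Separated embryos did not show such a gap for Rps19-ps8, with 0.0602 and 0.0743 CPM in 4-cell embryos of batch 2 and 2.17, 0.128 and 2.39 in those of batch 1, against 3.1, 0.0915, 0.146, 8.16 and 2.83 CPM in 2-cell embryos.

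Among the 12 most abundant members, Rpsa-ps10 had the smallest adjusted p for stage in separated embryos. It lies outside other genes at chr3:150072658-150073542 and shared 74.6% of its windows with Rpsa. It was at 93.9 and 33.7 CPM in separated 4-cell embryos of batch 2 and 6.37, 18.9 and 13.7 in those of batch 1, against 0.0508, 0.229, 0, 2.27 and 0.202 CPM in separated 2-cell embryos. The stages did not overlap, with a log2 fold change of 4.54 (SE 1.71) at an edgeR adjusted p of 0.0905. In intact embryos they did overlap, with 8.55, 17.9, 0.489 and 17.3 CPM at the 4-cell stage, against 0.139, 0, 0, 4.2 and 1.29 CPM at the 2-cell stage. The gene most like it over the 19 embryos, of 13692 compared, was Tead4, a transcription factor gene, at a Pearson correlation of 0.93. Ubtd1 and Tmem159 followed at 0.92, while the correlation of Rpsa-ps10 with Rpsa was 0.70. This likeness is a description over embryos of both stages that share batches, libraries and depth.

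**Figure D3:**
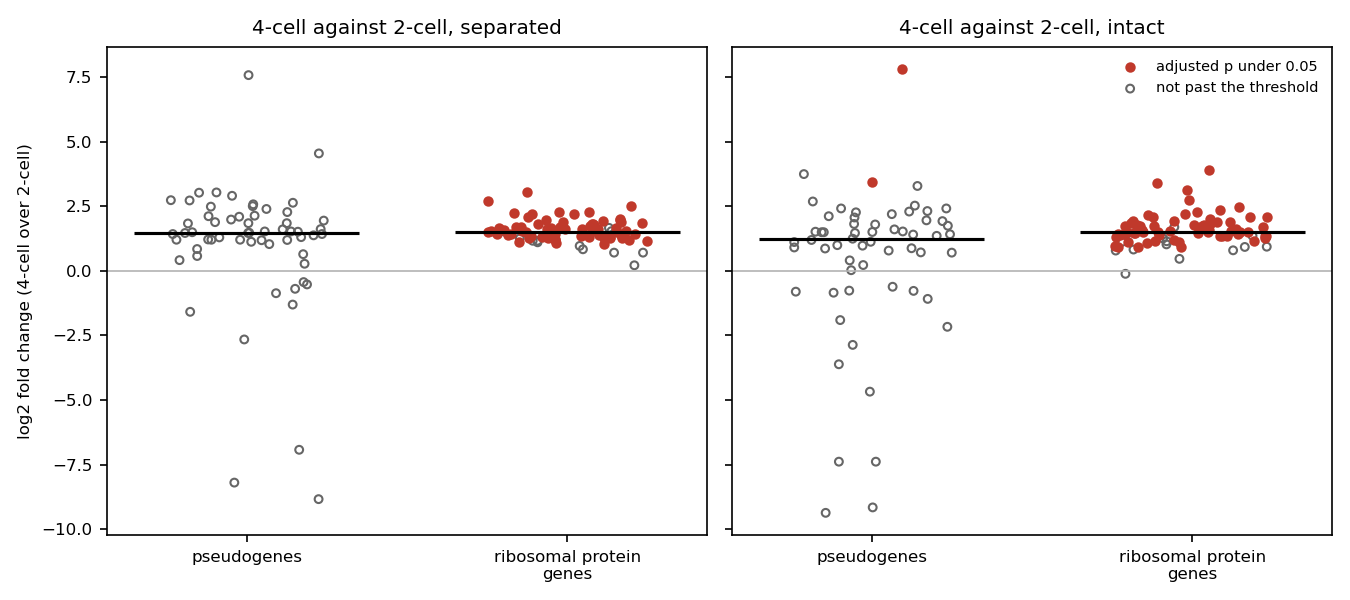
Log2 fold change of the 4-cell over the 2-cell stage (y axis) in separated embryos (left panel) and intact embryos (right panel), with 1 point for each tested member or ribosomal protein gene, red where the adjusted p was under 0.05 and a line at the median. The members have medians of 1.46 in separated and 1.24 in intact embryos with 2 red points, both in intact embryos, and spread more widely than the ribosomal protein genes.

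The difference of the stage effect between separated and intact embryos, tested as an interaction, was called in no member and in no gene, at a background of 0%. At an unadjusted p under 0.05 it held 2 members, Rpl31-ps6 and Rpl31-ps7, against 8.7% of all genes. Separation itself gave no call among members either. At the 4-cell stage no gene was called in any set (background 0%), no member passed an unadjusted p under 0.05 (5.98% of all genes) and DESeq2 called 0 members (2.87% of all genes). At the 2-cell stage 2 genes of all were called (0.0142%) and no member, with 2 members at an unadjusted p under 0.05 (10.5% of all genes) and 0 by DESeq2 (3.66%). Their median log2 fold change of separated over intact embryos was 0.31 at the 4-cell stage and 0.05 at the 2-cell stage, against 0.05 and 0.16 over all genes.

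Batch 2 was mostly lower than batch 1 among separated 4-cell embryos, though no member passed the test (edgeR, background 2.03% of all genes, with 0.269% higher and 1.76% lower). The median log2 fold change of batch 2 over batch 1 was −1.33 for the tested members and 0.13 for all genes, with 45 members below 0 and 14 above, and 4 passed an unadjusted p under 0.05, all lower (13% of all genes, in either direction). Rps24-ps3, a copy of the small subunit gene Rps24 on X at chrX:79195047-79195448, was at 2.2 and 2.75 CPM in batch 2, against 26.9, 23.1 and 25.8 CPM in batch 1. The batches did not overlap, and the log2 fold change was −3.35 (SE 1.11, adjusted p = 0.159, edgeR). Rps24 was at 802 and 794 CPM in batch 2, against 2100, 1740 and 1950 CPM in batch 1. Rpl3-ps1, a copy on X of the large subunit gene Rpl3 with 99.8% identity and 91.4% of windows shared, had values in the opposite direction and is named after its values had been seen. Its blastomeres had 881 to 1894 counts in batch 2 apart from 97 in the shallow library, against 2 to 28 counts in batch 1. Its log2 fold change was 3.44 (SE 1.88) at an edgeR adjusted p of 0.467. Rpl3 itself was at 962 and 933 CPM in embryos of batch 2, against 101, 145 and 210 CPM in those of batch 1, with an edgeR adjusted p of 0.127. Of the ribosomal protein genes, 11 of 79 were lower in batch 2 and none was higher. Batch 2 libraries were deeper than those of batch 1 except for the shallow one.

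Among separated embryos of a batch, single members were on in every blastomere of 1 embryo and off in every blastomere of another. With on set at 10 or more counts in each blastomere and off at 0 counts in each, 7 members had this pattern in separated 2-cell embryos, 2.73% of the 256, against 8.75% of all genes. They were Rpsa-ps10, Rpl15-ps6, Rpl15-ps2, Rpl21-ps8, Rpl28-ps3, Rpl22-ps1 and Rpl26-ps6. Among the 114 members at 30 or more summed counts the share was 6.14%, against 12.2% of genes at that limit. In separated 4-cell embryos there was none in batch 2 (background 0.0715%) and none in batch 1 (0.116%). An exact 0 is harder to reach in the deep libraries of batch 2, so a second rule was added after the values had been seen. It asks for 10 or more counts in each blastomere of 1 embryo and at least 20 times the CPM of any blastomere of the other. By this rule there were 4 members in batch 2 at the 4-cell stage, 1.56% of the 256, against 0.163% of all genes. Batch 1 had 2 (0.781%, against 0.238%) and the 2-cell stage 9 (3.52%, against 12.2%). In at least 1 of these sets there were 11 members.

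Rpl15-ps6 was 1 of the 4 members with this gap in batch 2. Its blastomeres had 1413, 1905, 1719 and 2150 counts in embryo 6 and 8, 0, 15 and 0 counts in embryo 7. The rule itself asks that all sisters of an embryo stand on the same side. The blastomeres were at 63.1 to 79.4 CPM in embryo 6 and at most 0.515 CPM in embryo 7. Rpl15-ps2 had the same direction, with 573, 906, 712 and 987 counts in embryo 6 and 2, 0, 4 and 1 in embryo 7. In batch 1 neither was off, with 9 to 169 counts of Rpl15-ps6 in every blastomere of embryos 2, 3 and 4.

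Both copies of Rpl15 were also at or near 0 in some 2-cell and some intact 4-cell embryos. Both were at 0 in both blastomeres of separated 2-cell embryo 2, while the other 4 separated 2-cell embryos had 13 to 369 counts of Rpl15-ps6 in each blastomere. Rpl15-ps6 was at 19.4, 0, 9.54 and 0 CPM in intact 4-cell embryos, against 7.2, 0, 0, 7.61 and 6.34 CPM in intact 2-cell embryos. Rpl15-ps2 was at 16.1, 0, 4.89 and 0 CPM in the same 4-cell embryos, against 4.57, 0, 0.0997, 6.13 and 5.17 CPM. The embryos without Rpl15-ps6 were those at or near 0 for Rpl15-ps2, with a single count of Rpl15-ps2 in intact 2-cell embryo 3.

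Both copies were alike over the 19 embryos at a Pearson correlation of 0.99 on the log2 scale. The genes next in likeness were Gm8420 (0.95 with Rpl15-ps2 and 0.93 with Rpl15-ps6) and Gm14094 (0.88 and 0.85), other processed pseudogenes that aligned to Rpl15 at 96.6% and 94.6% identity. The 4 copies lie on 4 chromosomes, 15, 9, 1 and 2. Rpl15-ps6 shared 59.5% of its windows with Rpl15-ps2, and Rpl15-ps2 shared 59.4% of its windows with Rpl15-ps6. The part of shared reads in their likeness was not tested. Gm8420 shared 18.8% of the windows of Rpl15-ps2 and 7.1% of those of Rpl15-ps6, and Gm14094 shared 0.5% and 0.2%. In embryo 6 the blastomeres had 92, 190, 67 and 188 counts of Gm8420, and in embryo 7 they had 0, 0, 4 and 0. Rpl15 itself was at 610 CPM in embryo 6 and 659 CPM in embryo 7, and its correlation with Rpl15-ps6 was 0.38. The likeness is a description over embryos that share batches, libraries and depth.

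Rps18-ps6 took the opposite side in batch 2. Its blastomeres had 1945, 173, 1778 and 1681 counts in embryo 7, with 173 in the shallow library, and 5, 16, 3 and 11 counts in embryo 6. In CPM the blastomeres of embryo 7 stood at 61.1 to 85.7 and those of embryo 6 at 0.119 to 0.561. In batch 1 all 12 blastomeres were between 10.2 and 70.6 CPM. Intact embryos held the same extremes, with 58.0, 20.1, 0 and 62.0 CPM at the 4-cell stage, against 0.139, 13.3, 11.7, 0 and 13.3 CPM at the 2-cell stage. Rps18 was at 535 CPM in embryo 6 and 257 CPM in embryo 7, and had a correlation of 0.43 with Rps18-ps6 over the 19 embryos.

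**Figure D4:**
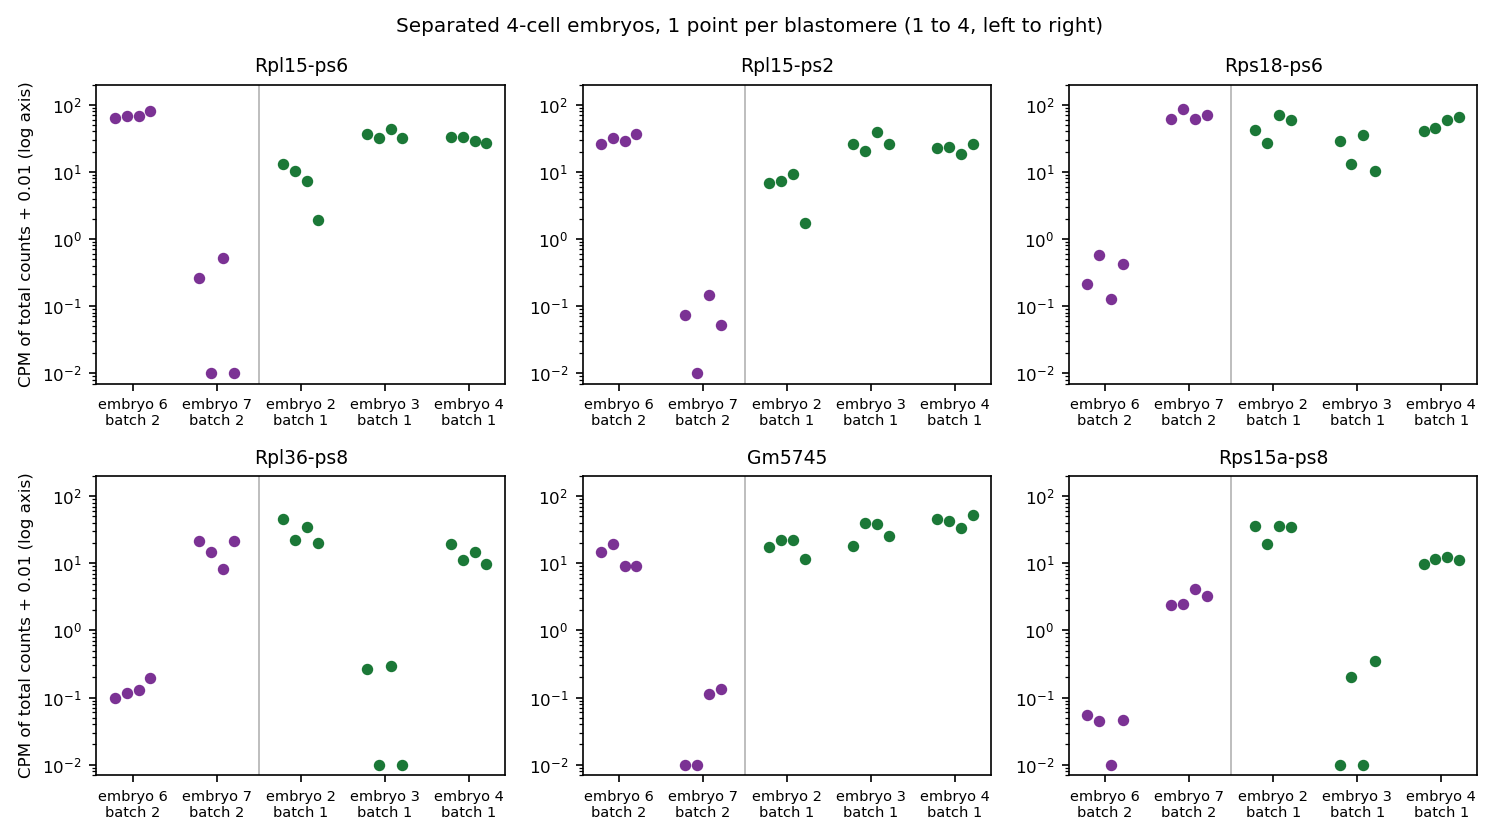
CPM of total counts (y axis, log scale, with a small constant added so that 0 can be drawn) of the single blastomeres of separated 4-cell embryos for 5 members and Gm5745, 1 point per blastomere, with the embryos of batch 2 left of those of batch 1. The 5 members met the 20-fold gap rule, which itself asks that sisters stand on the same side. Rpl15-ps6 is at 63.1 to 79.4 CPM in embryo 6 and at most 0.515 CPM in embryo 7. Between the sisters of embryo 2 it runs from 1.9 to 13.2 CPM.

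Rps15a-ps8, whose sequence is far enough from Rps15a to be told from it, varied in the same way. In batch 1 the blastomeres of embryo 2 had 160, 67, 112 and 166 counts and those of embryo 4 had 35, 28, 43 and 40, while embryo 3 had 0, 1, 0 and 1. In batch 2 embryo 7 had 75, 5, 120 and 78 counts, the 5 in the shallow library, and embryo 6 had 1, 1, 0 and 1. At the 2-cell stage separated embryos 1 and 4 had 100 to 856 counts in each blastomere, and embryos 2, 3 and 5 had 0 to 12. Intact embryos were at 0.518, 19.7, 34.0 and 42.2 CPM at the 4-cell stage, against 6.93, 0.822, 7.48, 7.38 and 0 CPM at the 2-cell stage. Some embryos of every group were thus near 0 and others of the same group were not.

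Its nearest genes in pattern were Gm26983, a processed pseudogene on chromosome 1 that aligned to Rps15a at 94.1% identity, at a Pearson correlation of 0.96, and Rps15a-ps7 at 0.94. Gm26983 shared no window of 50 bases with Rps15a-ps8. The third, at 0.75, was Gm8130 on chromosome 16, which did not align to Rps15a over more than 26 bases. Rps15a was at 381 CPM in embryo 6 and 324 CPM in embryo 7 and had a correlation of 0.33 with Rps15a-ps8. As with the copies of Rpl15, the copies of Rps15a named here lay on different chromosomes. They were picked as the nearest in pattern, so their closeness to each other follows from that choice. Other copies of both genes are not described here. For Rpl36-ps8, the gene nearest in pattern was Spcs2, at a correlation of 0.71, and not its close copy Gm5745.

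Rpl36-ps8 and Gm5745, which the sequences above show to differ at a single aligned base, differed between embryos in which of them held the counts. A read of the aligned part that does not cover this base cannot be assigned by its sequence alone. The counts thus do not show which copy was present, and the assignment of reads was not tested. In 9 of the 19 embryos 1 copy held over 99% of their summed CPM. In the other 10 neither did, with Rpl36-ps8 at 24.4% to 75.3% of the sum. In batch 2 Rpl36-ps8 had 673, 30, 238 and 511 counts in the blastomeres of embryo 7, with 30 in the shallow library, and 2, 3, 3 and 5 in embryo 6. Gm5745 had 0, 0, 3 and 3 counts in embryo 7 and 332, 544, 228 and 243 in embryo 6. In batch 1 embryo 3 had 1, 0, 1 and 0 counts of Rpl36-ps8 and 69, 207, 137 and 75 of Gm5745, while embryos 2 and 4 had both.

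Of the sum of the pair, Rpl36-ps8 held 99.6% in embryo 7, 0.956% in embryo 6 and 0.408% in embryo 3. It held 63.6% in embryo 2 and 24.4% in embryo 4. In intact embryos its shares were 29.7%, 0%, 51.1% and 0% at the 4-cell stage, against 100%, 100%, 69.0%, 0% and 100% at the 2-cell stage. In separated 2-cell embryos they were 59.8%, 55.0%, 31.9%, 50.8% and 75.3%. The sum of both copies was above 0 in each of the 19 embryos, from 3.62 to 57.6 CPM. Rpl36 itself was at 130 CPM in embryo 6 and 137 CPM in embryo 7.

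**Figure D5:**
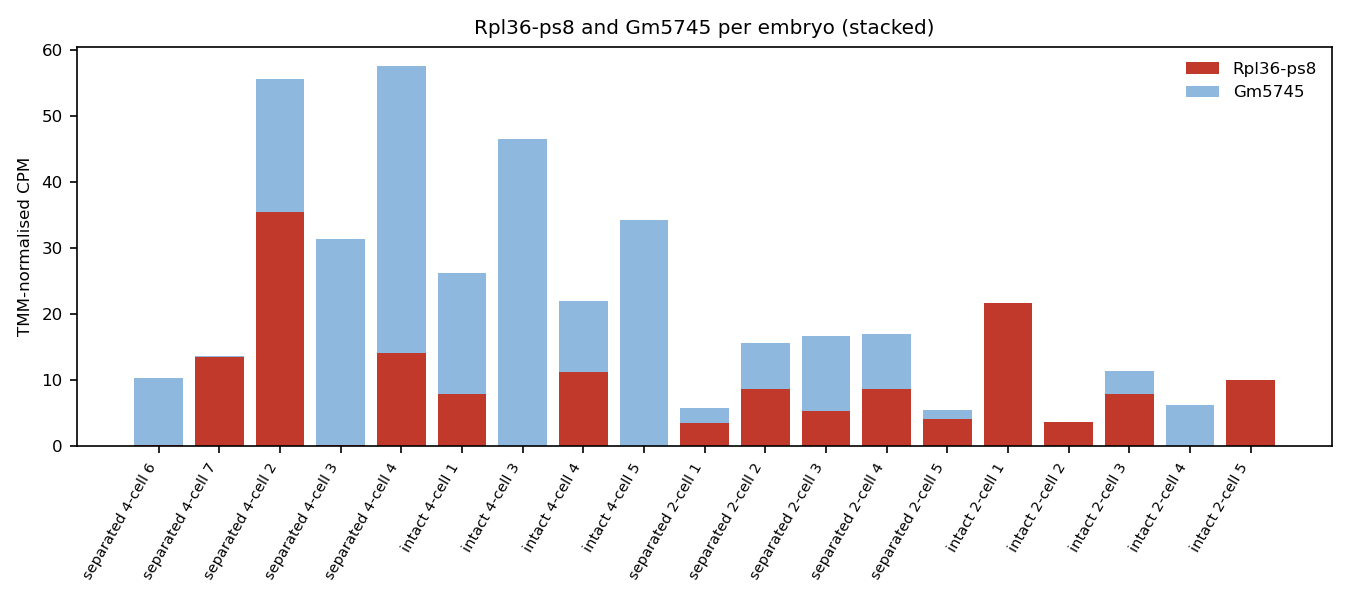
TMM-normalised CPM (y axis) of Rpl36-ps8 and Gm5745, stacked in 1 bar for each of the 19 embryos, with 4-cell groups left of 2-cell groups and batch 2 left of batch 1. The bar of separated 4-cell embryo 7 is nearly all Rpl36-ps8 (99.6%), that of embryo 6 nearly all Gm5745, and each bar is above 3 CPM.

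The rest of the members with the pattern had it at the 2-cell stage. Rpl26-ps6, a copy of the large subunit gene Rpl26 with 90.1% identity, had 49 and 111 counts in the blastomeres of separated 2-cell embryo 1, and none in those of embryos 3 and 4. Rpl28-ps3 had 54 and 48 counts in embryo 1 and none in embryos 2 and 3, and Rpl21-ps8 had 45 and 11 in embryo 1 and none in embryo 4. Rpsa-ps10 had 42 and 73 counts in embryo 4 and none in embryo 3. Rpl22-ps1 had 12 and 15 counts in embryo 2 and none in embryo 3. Rps19-ps8, which the second rule added, had 254 and 160 counts in embryo 4, against 1 and 3 in embryo 2.

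Some members lay near the limits of these rules. Rpl22-ps1 and Rpl21-ps8 had lowest counts of 12 and 11 in an embryo that was on, just inside the limit of 10. Rps15a-ps7, Rps7-ps3 and Rpl3-ps1 missed the 20-fold gap in separated 2-cell embryos and met a 10-fold one, and so did Rps15a-ps7 in batch 2.

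Sister blastomeres of an embryo could differ as well. A blastomere at 10 or more counts beside a sister at 0 was sought in any embryo. In batch 2 at the 4-cell stage 36 of the 256 members had it (29.1% of all genes). In batch 1 it was 17 (32.3%), and at the 2-cell stage 34 (36.4%). In embryo 7 of batch 2, which holds the shallow library of 2.02 M counts, it was 26 (18.3%). Sisters differed in depth, and its part in these counts was not tested. Rpl31-ps11 had 130 counts in 1 blastomere of separated 2-cell embryo 3 and 0 in its sister. Rps18-ps6 had 27 and 0 in the same embryo. Rpl26-ps6 had 387 counts in 1 blastomere of embryo 2 and 0 in the other, and Rps19-ps8 had 122 and 0 in embryo 1. At the 4-cell stage Rpsa-ps10 had 0, 17, 10 and 61 counts in the blastomeres of embryo 2. These examples were chosen after their values had been seen.

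Single libraries decided the level of some rarer members. Among the 114 members at 30 or more counts, 15 had over 50% of their CPM in 1 library, or 13.2%, against 24.0% of the 21092 genes at 30 or more counts. Rpl10a-ps4 had 98.9% of its 634 counts in 1 blastomere of separated 2-cell embryo 4. Of these 15, none was at 99% identity or more to its source gene, 5 were at 95 to 99%, 8 were below 95% and 2 had no alignment to it.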

How the data were processed

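Expression was measured by RNA sequencing in 39 libraries of 19 wild-type embryos. The authors deposited 1 table of expected counts per gene (55487 genes), which gives totals of 2.02 to 44.05 M counts (M, 1000000) per library. Per the submitters' processing notes, Trim Galore 0.6.10, STAR 2.7.3a and RSEM 1.2.28 were used with GRCm38 (mm10). The annotation, the strandedness and the treatment of reads with several matches are not given in the sources used here.

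The members and lists were chosen with earlier results of these data known. Expected counts were rounded and summed per embryo, and the numbers that labels give to blastomeres were used only for that. The test was the quasi-likelihood F-test of edgeR 4.0.16 (R 4.3.3) fitted once to all 19 embryos, with TMM scaling and filterByExpr (14119 genes). Its terms were the 4 groups and the batch, and p-values were adjusted by Benjamini-Hochberg over all genes at 0.05. The biological coefficient of variation was 1.43, and standard errors (SE) were computed as the size of the log2 fold change divided by the root of the F value. The script was tested on simulated data.

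Members were placed by symbol in GENCODE M21 (241) or through a RefSeq synonym (15). Transcripts were compared with blastn 2.17.0+ and Biopython 1.88, in windows of 50 bases. Levels per kilobase use the source transcript that aligned best, or the shortest such transcript. Likeness is the Pearson correlation of log2(CPM + 1) over 19 embryos among genes of a mean of at least 1 CPM. Python 3.11.15, pandas 2.3.3, numpy 2.4.6, scipy 1.17.1 and matplotlib 3.10.9 were used.

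Members named are the 12 of highest mean CPM, those called for stage (up to 8) or separation (up to 3), and those with the on and off pattern (up to 12). The 20-fold gap rule, the members near its limits, the examples of sisters and of single libraries, and Gm5745, Gm8420, Gm14094, Gm26983, Gm8130, Rps19-ps8, Rpl31-ps6, Rpl31-ps7, Rpl19-ps3, Rpl3-ps1 and Rps18-ps4 were named after their values had been seen. Alternatives were other scaling, count filters, no rounding, the compared groups alone, no batch term, batch 2 left out, the replicate number as a block, DESeq2 1.42.0, each embryo left out, other summed members and other limits for on and off.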

Additional observations from a re-analysis of the deposited data

Results flagged for a closer look

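Values of single embryos far from the rest of their group were sought with Dixon's test at 95% in 63 groups of 4 or 5 embryos, and 8 were found. Chance flags about 1 in 20 groups, but the count cannot be set against that rate, since 4 of the 8 belong to members named for their differences between embryos. Rpl31-ps11 was at 6.31 CPM in separated 2-cell embryo 3, with the next embryo at 0.0674 CPM, and all of it came from 1 blastomere with 130 counts. In intact 2-cell embryo 3 the same member was at 0.0997 CPM, which is 1 count, with the others at 0. Rpl28-ps3 was at 2.59 CPM in separated 2-cell embryo 1, with the next at 0.135 CPM, and at 7.5 CPM in intact 2-cell embryo 5, with the next at 0.0997 CPM. Rpl26-ps6 was at 21.4 CPM in intact 2-cell embryo 3, with the next at 2.8 CPM. Rpsa-ps10 was at 2.27 CPM in separated 2-cell embryo 4, with the next at 0.229 CPM.

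Rps16-ps2 stood out on the low side, at 5.12 CPM in separated 2-cell embryo 5, with the next embryo at 8.35 CPM. The share of the members in the sum of members and source genes was 1.141% in separated 2-cell embryo 3, with the next embryo at 0.8462%.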

How the results depend on the processing

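Of the values that answer a comparison, 138 kept their size or side under an alternative and 40 moved. Of those for single members, 678 were unchanged in call and direction, 10 newly passed the threshold, 26 no longer passed it and 11 changed sign, and the cause was not tested. In intact embryos the number of members called for stage, 2, was 0 with no count filter, with the compared groups alone, with no batch term, with batch 2 left out and with the replicate block, and 8 with DESeq2. Leaving out 1 embryo gave 0 to 1. In separated embryos the number, 0, was 2 with the compared groups alone (Rpl38-ps2 and Rps18-ps5), 2 with no batch term (Rpsa-ps10 and Rpl3-ps1) and 4 with DESeq2, and 0 to 2 with 1 embryo left out, with 1 without separated 2-cell embryo 3 and 2 without embryo 4. The replicate numbers did not pair the embryos, since same-numbered embryos deviated with correlations of −0.055 to 0.025 and most did not correlate best with their own number. With the replicate block, no member was called for stage or separation, and the log2 fold change for stage in intact embryos changed sign for Rpl15-ps2 (−0.42), Rpl15-ps6 (−0.14) and Rpl26-ps6 (1.76).

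With 1 embryo left out, the log2 fold change for stage in intact embryos changed sign for Rpl15-ps2 (−1.07 to 1.09), Rpl15-ps6 (−0.52 to 1.1), Rpl26-ps6 (−2.94 to 0.62) and Rpl28-ps3 (−1.71 to 4.78). In separated embryos it did so for Rpl28-ps3 (−3.87 to 4.4), Rps15a-ps7 (−0.21 to 2.39), Rps15a-ps8 (−0.29 to 2.25) and Rps19-ps8 (−1.34 to 0.02). None of these was called.

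Without Rpsa-ps10, the members' share of all counts in batch 2 was 0.0328%, and their share in members plus source genes was 0.735%. With members of 30 or more counts alone, the share in members plus source genes was 1.1% in batch 2, 0.979% in batch 1 and 0.848% in intact 4-cell embryos, against 1.02% in separated and 1.15% in intact 2-cell embryos. The number of members on in 1 embryo and off in another was 2 in batch 2, 2 in batch 1 and 2 in separated 2-cell embryos when on was set at 5 CPM and off below 0.5 CPM, against 0.0442%, 0.174% and 8.2% of all genes. Gap rules of 10, 20 and 50-fold gave 5, 4 and 3 in batch 2 (0.235%, 0.163% and 0.109% of all genes) and 2 each in batch 1 (0.35%, 0.238% and 0.184%), and the 10-fold gap gave 12 in 2-cell embryos (13.2%). Off below 3 counts gave 2 in batch 1 (0.276%). Without the shallow library, the 20-fold gap gave 5 in batch 2, with Rps15a-ps8 added (background 0.276%), and 2 in batch 1. With 1 embryo left out, the 2-cell count of 7 was 4 to 7, with 4 without embryo 2 (6.87% of all genes).

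Groups of 2 to 5 embryos and members of low counts limit what the tests can find, and counts of 0 in shallow libraries do not show absence.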
